A study of Trichoderma reesei with 12 samples.

Results

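The genes nearest the chromosome ends of *Trichoderma reesei* were examined, a filamentous ascomycete used for cellulase production. The 280 genes were chosen from the gene identifiers alone, as the 20 genes with the lowest and the 20 with the highest numbers on each of the 7 chromosomes (A to G), which gives 14 ends. They are called end genes, and they were compared with the 10599 remaining genes of the 10879 in the table. On every chromosome the numbers ran from 1 without a gap, up to 1209 on G and 2149 on A. That they follow the order of genes along the chromosome was taken from the identifiers and was not checked against coordinates, and places are counted from the end, so that place 1 is the outermost gene.

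RNA from mycelium of 12 cultures was sequenced after depletion of ribosomal RNA, 3 per group. The groups were the wild-type QM6a and the mutant QM6aΔrgs4 (Δrgs4), each kept either permanently dark (DD) or permanently lit (LL). All 4 groups were grown on cellulose in minimal medium at 28 °C for 96 h. In Δrgs4 the gene of RGS4, a regulator of G-protein signaling, was replaced by the hygromycin resistance cassette hph in the QM6a background. The mutant is a single strain in which the study's methods found more than 1 copy of the deletion cassette, so that the deletion and other effects of transformation cannot be told apart within these libraries. The study crossed the mutant with a female fertile strain and reports that the growth defect on glucose went with the deletion among the progeny. No progeny are among these libraries.

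The outermost stretches of fungal chromosomes lie next to the telomeres, the repeats that protect chromosome tips. Such subtelomeric stretches are known in many fungi for clusters of secondary metabolism genes, for genes with homologues in few species and for packing into heterochromatin, a chromatin state of low transcription. Light is sensed in *T. reesei* by photoreceptors and reaches metabolism in part through the heterotrimeric G-proteins that RGS proteins switch off. Annotations were available for 13 of the end genes only, and the others are given by their identifiers.

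Each library held between 11.25 and 15.84 M (M, mega) reads on genes. Transcripts of rgs4 (TrG0496W) had 1470 to 2040 reads in each wild-type library and 0 to 5 in each Δrgs4 library. The library of Δrgs4 DD replicate 3 stood apart from replicates 1 and 2: of the 174 end genes with enough reads for a test, 44 (25.3%) were more than 2-fold below the mean of the other replicates in it and 0 were as far above. Of the remaining genes 7.43% lay as far below and 0.78% as far above. Counts of called genes that change by more than 1.5 times without this library, and calls of named genes that change, are therefore also given without it.

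Levels at the ends were low in all groups, and a number of end genes had no read in these cultures. Levels are given as normalized counts, which are reads scaled by a size factor for sequencing depth and not divided by gene length. The median end gene had 13.3 normalized counts in wild-type DD, 15.9 in Δrgs4 DD, 3.83 in wild-type LL and 4.50 in Δrgs4 LL. For the remaining genes these medians were 306, 309, 292 and 283. Not a single read in any of the 12 libraries was found for 34 end genes (12.1%) and for 3.59% of the remaining genes. A level of 0 says that no read was assigned. For reads with several alignments and for the strand, the sources used here do not give the setting of the counting, so that genes with near-identical copies or overlapping neighbours have uncertain values.

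Genes without a read made up 28.6% of places 1 to 5, 14.3% of places 6 to 10 and 2.86% each of places 11 to 15 and 16 to 20. The 11 outermost genes of the low-numbered end of chromosome F, TrF0001C to TrF0011W, were all at 0 in every library, and the other 23 genes without a read were spread over 11 of the other 13 ends. Of the 14 outermost genes 8 had no read, and TrB0001W had 1 read in 1 library. TrC0001C had 2 to 7 reads in each DD library and 0 in each LL library, and TrG1209W had 0 to 4 reads in every group. At least 10 reads in at least 3 libraries, the limit for a test, were reached by 174 of the 280 end genes (62.1%), by 75.0% of the genes at places 21 to 40 and by 82.3% of all remaining genes.

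The outermost genes that did have enough reads were TrA0001W, TrC1580C and TrE0001C, and each was lower in light in both strains. TrA0001W had 638, 616 and 677 normalized counts in wild-type DD and 187, 190.4 and 201 in wild-type LL. TrC1580C had 71.9, 64.2 and 75.5 in wild-type DD and 7.33, 6.77 and 6.64 in wild-type LL. TrE0001C had 74.8, 124 and 99.6 in wild-type DD and 0 in all LL libraries of both strains. For all 3 genes the DD and LL libraries of the wild-type did not overlap, which was the case for 68.1% of all genes tested. In the wild-type limma with Benjamini-Hochberg adjustment gave log2 fold changes of -1.73, -3.02 and -5.64, at adjusted p of 1.8e-07, 5.1e-06 and 0.00028. In Δrgs4 these were -1.62, -2.86 and -4.87, at adjusted p of 3.3e-07, 8.3e-06 and 0.00083. Against 3 reads in each LL library, TrE0001C was at least 33.0-fold lower in light in the wild-type.

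Fewer end genes had reads in light than in darkness, in both strains. At least 10 reads were found for 154, 151 and 155 end genes in wild-type DD and for 100, 113 and 116 in wild-type LL. In Δrgs4 the numbers were 167, 158 and 143 in DD and 116, 112 and 107 in LL, with the lowest DD value in replicate 3. Every DD library thus lay above every LL library, while the remaining genes with at least 10 reads made up 79.5 to 80.7% in DD and 75.7 to 78.3% in LL. This measure uses all 280 genes and no filter. In RNA from whole mycelium, fewer hyphae with a transcript and less transcript per hypha cannot be told apart.

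**Figure D1:**
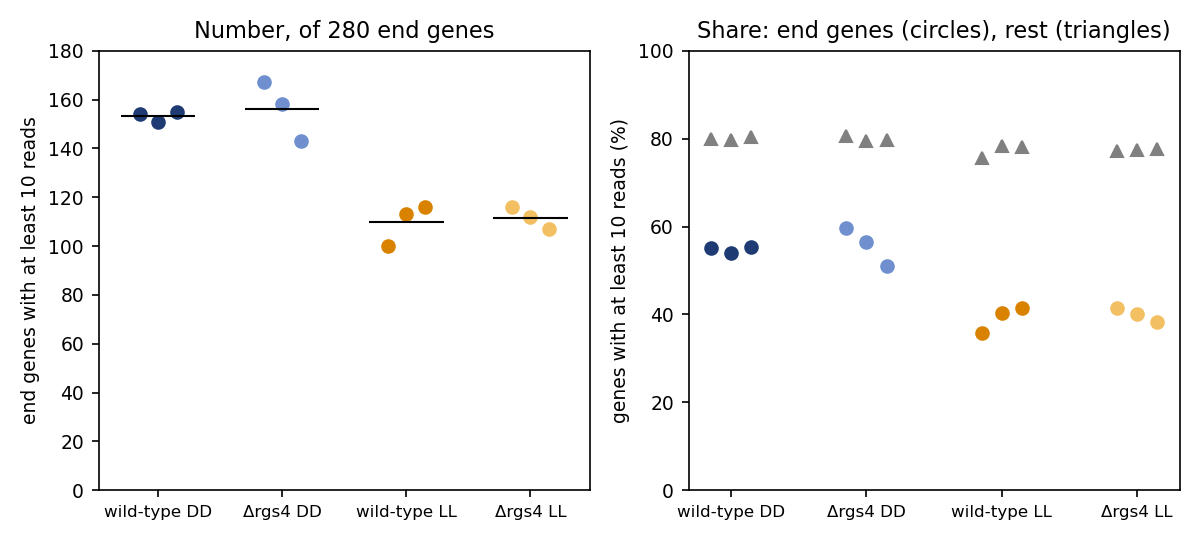
Left, number of the 280 end genes with at least 10 reads in each library (points) and the mean of the 3 libraries (line); right, the same as a percentage of the end genes (circles) beside the percentage of the remaining genes (grey triangles). Every DD library lies between 143 and 167 end genes and every LL library between 100 and 116, whereas the remaining genes stay between 75.7 and 80.7%.

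Reads on end genes made up 0.605 to 1.09% of all reads on genes in DD and 0.236 to 0.321% in LL. A large share of these reads in DD came from only 2 genes at the high-numbered end of chromosome G, TrG1206C and TrG1195C. Without them the share was 0.367 to 0.495% in DD and 0.236 to 0.320% in LL, so that DD and LL libraries still did not overlap. More than 100 normalized counts were reached by 74 to 85 end genes (26.4 to 30.4%) in DD and by 51 to 54 (18.2 to 19.3%) in LL. Of the remaining genes 65.1 to 66.1% reached this level in DD and 62.7 to 63.7% in LL.

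A number of end genes with reads in all DD libraries had hardly any in light. In wild-type DD 139 end genes had at least 10 reads in every library, and 22 of them (15.8%) had at most 3 reads in every LL library. Among the remaining genes this held for 1.42% of those with as many reads in DD, and among places 21 to 40 for 4.84%. In Δrgs4 it held for 17 of 134 end genes (12.7%) and for 1.22% of the remaining genes. The genes counted had a median of 153 normalized counts in wild-type DD at the ends and of 546 elsewhere, so that 3 reads were a smaller step down at the ends, and the 22 end genes themselves ranged from 11.1 to 1081 with a median of 65.1. The opposite, at least 10 reads in every LL library and at most 3 in every DD library, was also more frequent at the ends. It was found for 2 of 97 end genes (2.06%) against 0.289% of the remaining genes in the wild-type, and for 4 of 98 (4.08%) against 0.225% in Δrgs4. The 2 genes of the wild-type, TrE0014C and TrE0015W, are neighbours in the siderophore cluster described further on, so that this share rests on a single cluster. At least 10 reads in every DD library and at most 3 in every LL library were found in both strains for 13 end genes. Among them were 4 neighbours at the high-numbered end of chromosome A, TrA2144C to TrA2147C. TrC0019C, annotated as an aspartyl-tRNA synthetase, and the neighbouring TrC0020W belonged to the same 13 genes.

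The test for light against darkness in the wild-type found 97 of the 174 end genes lower in light and 25 higher. Genes were called with limma where the log2 fold change was beyond 0.58 in either direction and the Benjamini-Hochberg adjusted p over 8895 genes was below 0.05. Over all genes tested, 21.6% were lower and 15.3% were higher. The median log2 fold change of the end genes was -1.05, and that of all genes -0.01. In Δrgs4 106 end genes were lower and 24 were higher, against 22.0% and 14.2% of all genes, with a median of -1.38, or -1.35 with genes at 0 in light set to their limit. Without Δrgs4 DD replicate 3 this median was -1.52 over 171 end genes. Of these 2 lost and 7 gained a call, and 18 had a fold change that differed by more than 1.5 times, each of them with a lower value without the library. Of the genes lower in light 94 were shared by both strains, 96.9% of the 97 in the wild-type and 88.7% of the 106 in Δrgs4, and 20 genes were higher in both. None was called in opposite directions. How many calls the strains shared among the remaining genes was not counted.

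The filter bears on these counts, since 60 of the 174 end genes had enough reads only through the DD libraries and 11 only through the LL libraries. A gene that passed through DD alone was low in light by that choice. Of the 103 end genes with enough reads in DD as well as in LL, 45 (43.7%) were lower and 14 (13.6%) were higher in wild-type LL, with a median log2 fold change of -0.55. Of the remaining genes with enough reads in both conditions 18.1% were lower and 15.1% were higher, and their median was 0.01. Lower values in light were more frequent among tested genes at low levels elsewhere in the genome too. With under 30 normalized counts on average, 35.1% of the remaining genes and 50.9% of the end genes were lower. From 30 to 100 it was 32.7% and 57.5%, and from 100 to 300 it was 22.0% and 59.5%. From 300 to 1000 normalized counts it was 16% of the remaining genes and 13 of 19 end genes, and above 1000 it was 16.8% of the remaining genes and 7 of 16 end genes. These shares include genes that passed the filter through 1 condition alone, 430 of the remaining genes through DD and 178 through LL. Low level and filter can therefore not be told apart in them.

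The light response differed between the ends. The share of tested end genes lower in wild-type LL ranged from 31.6% on chromosome F, where 26.3% were higher, to 81.8% on chromosome B. The remaining genes of each chromosome stood between 19.5 and 23.2%. Over end genes with enough reads in DD as well as in LL, 6 of 10 were lower and 0 higher on chromosome B and 8 of 16 and 0 on G. On chromosome F 3 of 13 were lower and 4 higher, so that the surplus of lower genes was not found there. On the other chromosomes 41.2 to 50.0% of such genes were lower, and the remaining genes of the 7 chromosomes stood at 16.4 to 19.9%. Over all tested genes, those that passed the filter through DD alone included, more were lower than higher on 12 of the 14 ends and the median fold change was below 0. The exceptions were the high-numbered ends of chromosomes E and F, each with 4 genes higher and 3 lower. In Δrgs4 these ends and the high-numbered end of chromosome D each had 4 higher and 4 lower genes and a median above 0. Over genes with enough reads in DD as well as in LL, the low-numbered end of chromosome C also had more higher than lower genes in the wild-type. There 0 of 6 were lower and 2 higher, with a median of 0.37. The low-numbered end of chromosome B had 11 of 11 tested genes lower in both strains, and the high-numbered end of chromosome A had 12 of 14 lower in the wild-type and 14 of 14 in Δrgs4. Of these genes 8 at the end of B and 10 at the end of A had enough reads only through the DD libraries. Over genes with enough reads in DD as well as in LL, 3 of 3 were lower at the end of B in both strains. At the end of A it was 3 of 4 in the wild-type and 4 of 4 in Δrgs4.

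**Figure D2:**
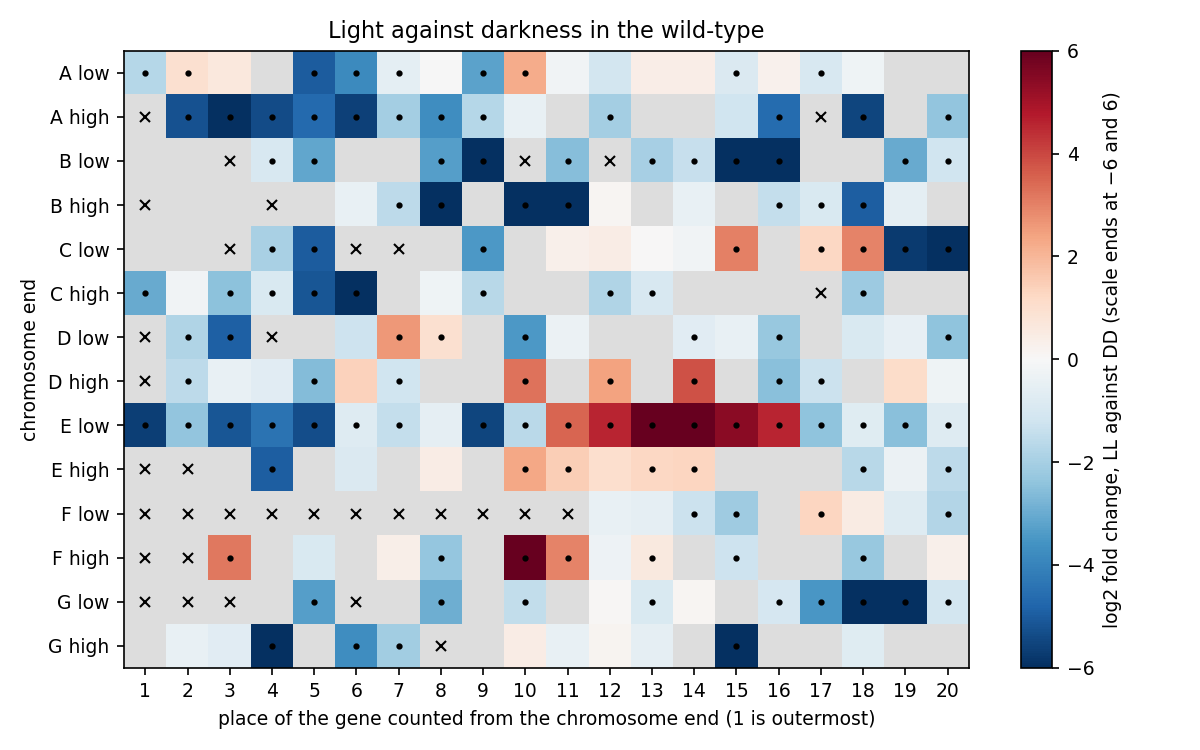
Log2 fold change of LL against DD in the wild-type for the 280 end genes, with 1 row for each chromosome end and 1 column for each place from the outermost gene inwards. Blue is lower and red higher in light, dots mark called genes, crosses mark genes without a read in any library and grey marks genes with too few reads; the 11 crosses of the low-numbered end of F and the block of 6 red genes at the low-numbered end of E stand out.

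By place from the end, 74.3% of the tested genes at places 1 to 5 were lower in wild-type LL, 60.5% at places 6 to 10, 30% at places 11 to 15 and 65.2% at places 16 to 20. Genes higher in light were most frequent at places 11 to 15, with 13 genes (26.0%), of which 5 belong to the siderophore cluster described further on. Beyond the end genes the share of lower genes was 40.5% at places 21 to 40, 25.7% at 41 to 60, 33.4% at 61 to 100, 28.9% at 101 to 200 and 18.0% farther inside. The share thus fell from places 16 to 20 to places 21 to 40. It stayed above that farther inside in each group of places out to 200, and it did not fall evenly. These shares include genes that passed the filter through DD alone, 21 of the 35 at places 1 to 5. Over genes with enough reads in DD as well as in LL, 8 of 14 were lower at places 1 to 5, 12 of 24 at places 6 to 10, 9 of 35 at places 11 to 15 and 16 of 30 at places 16 to 20. At places 21 to 40 it was 36.6% and beyond place 200 it was 15.9%. Over all tested genes Δrgs4 gave 82.9% at places 1 to 5 and 48.1% at places 21 to 40.

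**Figure D3:**
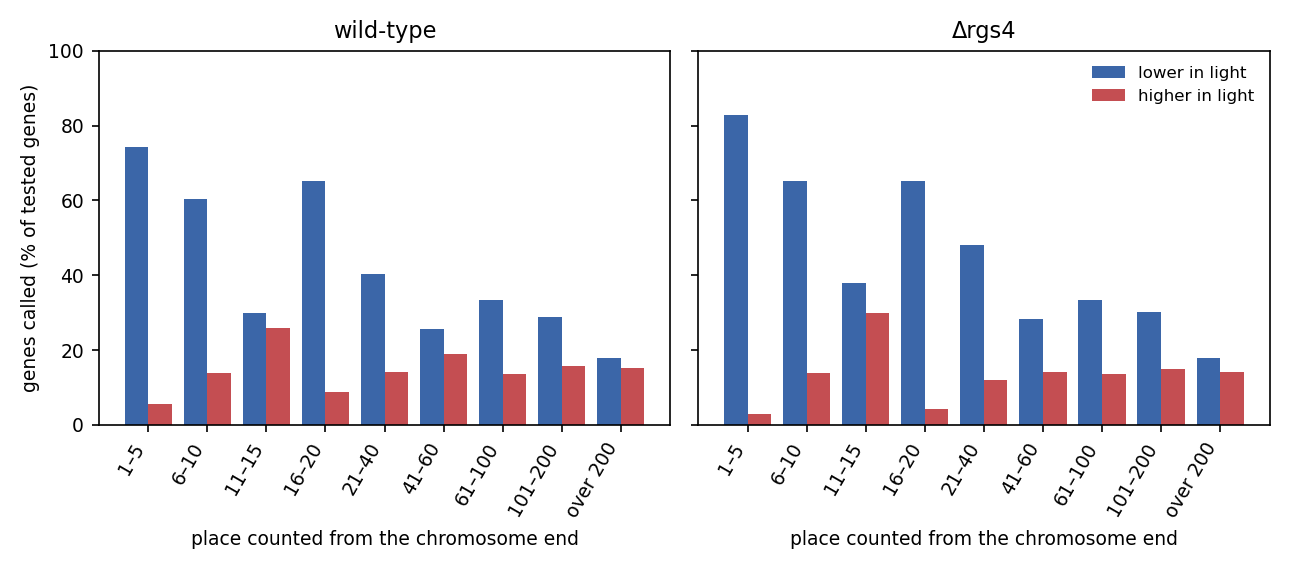
Percentage of tested genes called lower (blue) and higher (red) in light against darkness, by place from the chromosome end, for the wild-type (left) and Δrgs4 (right). In the wild-type the blue bars fall from 74.3% at places 1 to 5 to 18.0% beyond place 200, with a dip to 30% at places 11 to 15.

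The strongest decreases were those of TrG1206C and TrG1195C, which were also the end genes with the highest mean level. TrG1206C had 37118, 55524 and 35560.4 normalized counts in wild-type DD and 18.3, 9.31 and 55.0 in wild-type LL. In Δrgs4 it had 63614, 62131 and 23596 in DD and 123, 28.5 and 0 in LL. All DD libraries lay above all LL libraries in both strains, and replicate 3 was the lowest Δrgs4 library in either condition. The log2 fold changes were -10.79 with a standard error (SE) of 1.17 (adjusted p = 1.2e-05) in the wild-type and -11.17 ± 1.17 (SE, adjusted p = 9.8e-06) in Δrgs4 by limma.

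TrG1195C, at place 15 of the same end, had 12372, 20297 and 13449 normalized counts in wild-type DD and 1.22, 1.69 and 32.2 in wild-type LL. In Δrgs4 it had 24201, 22621 and 8520.3 in DD and 30.7, 11.4 and 0 in LL. Its log2 fold changes were -10.98 (adjusted p = 3.9e-06) and -10.77 (adjusted p = 4.7e-06). As for TrG1206C, wild-type LL replicate 3 was the highest wild-type LL library and Δrgs4 LL replicate 1 the highest Δrgs4 LL library.

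A similar order of the LL libraries was seen for a pair of neighbours at the high-numbered end of chromosome B. TrB1968W had 1839.7, 3185 and 1978 normalized counts in wild-type DD and 1.22, 0 and 5.69 in LL, and 3965, 3390.0 and 814 in Δrgs4 DD and 10.9, 2.28 and 0 in LL. TrB1967C had 928, 1365 and 958 in wild-type DD and at most 4.74 in wild-type LL. Their log2 fold changes in the wild-type were -9.27 and -8.25 (limma, adjusted p = 1.2e-06 and 1.5e-06), and in Δrgs4 they were -8.86 and -8.08. The next gene towards the interior, TrB1966W, had 1979 to 2212 normalized counts in wild-type DD and 2209 to 2331 in wild-type LL. It was not called, with a log2 fold change of 0.12 ± 0.07 (SE, adjusted p = 0.17, limma).

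On the other end of chromosome B the neighbours TrB0013C to TrB0016W were all lower in light in both strains. TrB0016W had 914, 1446 and 883 normalized counts in wild-type DD and 2.44, 0 and 0 in LL, and TrB0015C had 379, 611 and 433 in DD and 0 in all 3 LL libraries. Against 3 reads in each LL library TrB0015C was at least 157-fold lower, and the fitted log2 fold change of TrB0016W was -8.66 (adjusted p = 3.6e-08, limma). TrB0013C, at the edge of the run, had only 8.05 to 11.4 normalized counts in wild-type DD and at most 1.90 in LL.

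In the wild-type 8 runs of at least 3 neighbouring end genes were lower in light and 1 was higher. Runs were not counted among the remaining genes. Whether lower genes lie together more often than their share at the ends would give was not tested. The longest run lay at the high-numbered end of chromosome A, from TrA2141C to TrA2148W, with 8 genes and log2 fold changes from -1.73 to -6.58. Its strongest member TrA2147C had 158, 185 and 232 normalized counts in wild-type DD and 259, 256 and 224 in Δrgs4 DD. No read was found in the 6 LL libraries, which is at least 63.6-fold lower in the wild-type and at least 83.2-fold lower in Δrgs4. In Δrgs4 the run also took in TrA2140W and had 9 genes. At this end 10 of the 14 tested genes had enough reads only through the DD libraries.

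At the high-numbered end of chromosome C 4 neighbours were lower in the wild-type, TrC1575C to TrC1578W, and 6 in Δrgs4, up to the outermost gene TrC1580C. TrC1575C had 2010.0, 2075 and 1836 normalized counts in wild-type DD and 11, 19.5 and 12.3 in LL, with a log2 fold change of -6.96 ± 0.21 (SE, adjusted p = 6.7e-10, limma). TrC1578W fell less, with a log2 fold change of -2.46.

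At the low-numbered end of chromosome G the run TrG0016W to TrG0020C was lower in both strains. TrG0019C had 6658, 11242 and 8464 normalized counts in wild-type DD and 83.1, 81.2 and 58.8 in LL. TrG0018C had 3567, 4526 and 3619 in DD and 29.3, 26.2 and 28.4 in LL. The DD levels of these genes were 118-fold and 139-fold above the LL levels, and the log2 fold changes were -6.83 and -7.02 (adjusted p = 4.9e-08 and 7.0e-10, limma). The outer genes of the run changed less, with -1.02 for TrG0016W and -1.11 for TrG0020C. The call of TrG0016W, which had at most 20.1 normalized counts, was lost without any 1 of 5 libraries (wild-type DD replicates 1 and 3, wild-type LL replicates 1 and 2 and Δrgs4 DD replicate 2), where the adjusted p was above 0.05. In Δrgs4 it lost the call without any 1 of 8 libraries, Δrgs4 DD replicate 3 among them, with an adjusted p of up to 0.152.

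Shorter runs of 3 lower genes in the wild-type were TrA0005W to TrA0007W, led by TrA0005W at -5.00, and TrB1960C to TrB1962C, led by TrB1960C at -4.93. TrA0007W was near the fold threshold, with -0.60 in the wild-type and -0.95 in Δrgs4. Its wild-type call, and with it the run of 3, was lost without wild-type DD replicate 1 or 3 or wild-type LL replicate 1. With single libraries left out its wild-type log2 fold change was -0.68 to -0.48. In Δrgs4 TrF0013C, annotated as an unknown protein that is mutated in strain RutC30, was lower together with its neighbours up to TrF0015W, with log2 fold changes from -1.31 to -2.24.

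Genes higher in light were fewer, and the strongest outside the siderophore genes was TrF1202W. It had 3.79, 1.07 and 2.01 normalized counts in wild-type DD and 284, 301 and 672 in wild-type LL. In Δrgs4 it had 0.961, 2.34 and 0 in DD and 776, 708 and 397 in LL. All LL libraries lay far above all DD libraries, with log2 fold changes of 6.55 in the wild-type and 7.68 in Δrgs4 (adjusted p = 1.7e-07 and 4.9e-08, limma).

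Its neighbour TrF1201C had 248 to 267 normalized counts in wild-type DD and 1665, 1732 and 3088 in LL. The change was 2.99 on the log2 scale (limma, adjusted p = 9.7e-07). In Δrgs4 its log2 fold change was 3.44. As for TrF1202W, replicate 3 was the highest wild-type LL library and the lowest Δrgs4 LL library.

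TrC0018C had 358, 547 and 436 normalized counts in wild-type DD and 3711, 3166 and 3570.1 in LL, and was thus higher in light by 2.98 on the log2 scale (limma, adjusted p = 1.3e-06). It lies beside TrC0019C and TrC0020W, which had at most 3 reads in each LL library. In both strains TrD1430C and TrD1434C at the high-numbered end of chromosome D were higher in light, with 25.4 to 52.2 normalized counts in wild-type LL and 0 to 6.04 in wild-type DD. In Δrgs4 3 neighbours at the high-numbered end of chromosome E were also higher, from TrE1294W (1.65) to TrE1296C (1.12). TrE1296C had adjusted p = 0.038 by limma in Δrgs4 and 0.055 in the wild-type. It lost the Δrgs4 call, and with it the run of 3, without any 1 of 6 libraries, with an adjusted p of up to 0.160.

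Among the abundant end genes TrD1440W was not called. It had 6663, 5631 and 7137 normalized counts in wild-type DD and 1839, 3826 and 9458 in wild-type LL. The LL libraries lay on both sides of the DD libraries, and the log2 fold change was -0.67 ± 0.49 (SE, adjusted p = 0.26, limma). Without wild-type LL replicate 3, the highest, it was called lower, with -1.28 and an adjusted p of 0.017 by limma, and without wild-type LL replicate 1, the lowest, the value was -0.10.

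The low-numbered end of chromosome E was the only end with all 20 genes tested, and it held stretches with opposite responses. Of these genes 7 had enough reads in DD as well as in LL, 8 only through the DD libraries and the others only through the LL libraries. A gene that passed through 1 condition alone was low in the other by that choice. Over the 7 genes with enough reads in both, 6 were lower and 1 was higher in light in either strain. The 7 outermost genes, TrE0001C to TrE0007W, were lower in light in the wild-type, as were TrE0009C, TrE0010C and the 4 innermost, TrE0017C to TrE0020C. Between these lie the 6 genes of the siderophore cluster, TrE0011C to TrE0016W, all of which were higher in wild-type LL. Siderophores are small molecules that fungi secrete to bind iron and then take up again.

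**Figure D4:**
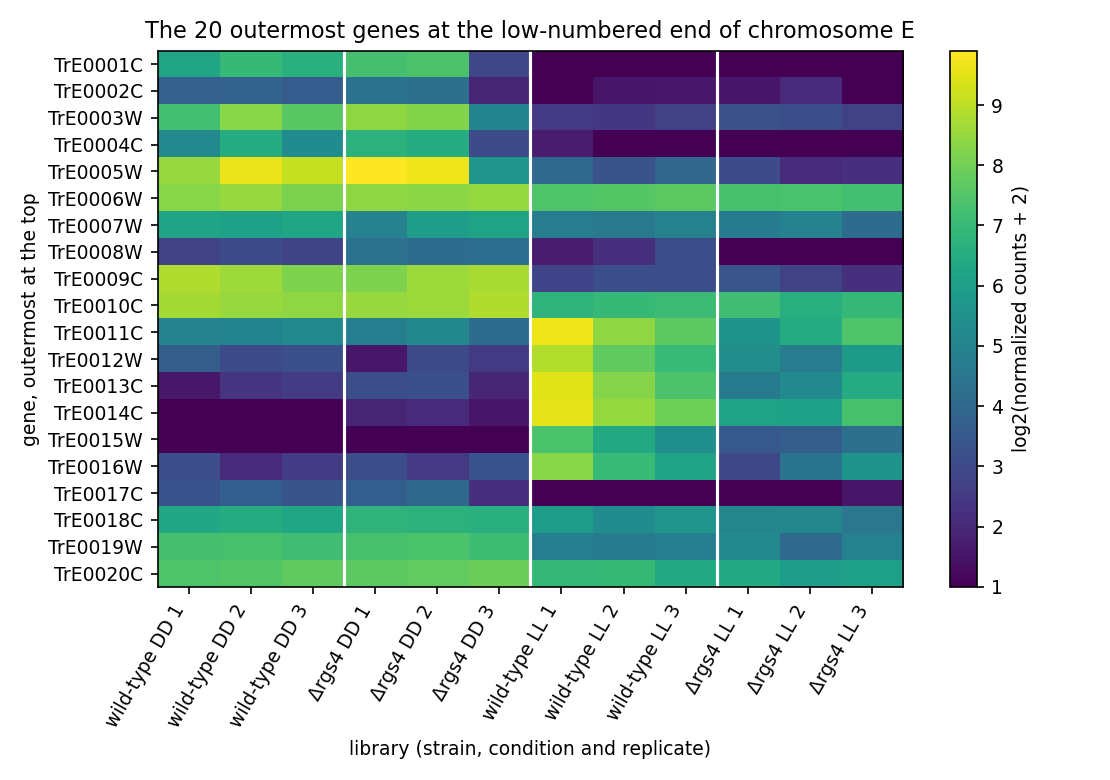
Levels of the 20 outermost genes at the low-numbered end of chromosome E in each of the 12 libraries, as log2(normalized counts + 2), with the outermost gene at the top. TrE0001C to TrE0005W are low in all LL libraries and in Δrgs4 DD replicate 3, whereas TrE0011C to TrE0016W are high in the wild-type LL libraries.

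Within the outer stretch TrE0001C to TrE0005W had log2 fold changes down to -5.64 in the wild-type. TrE0005W had 367, 798 and 552 normalized counts in wild-type DD and 14.7, 7.62 and 13.3 in LL. In Δrgs4 DD it had 954 and 809 in replicates 1 and 2 but 47.9 in replicate 3, and 2.28 to 6.33 in LL. The same library was low for all 5 genes, which were 9.99- to 29.2-fold below the mean of replicates 1 and 2 there. TrE0001C, for example, had 154, 169 and 5.52 normalized counts in the 3 Δrgs4 DD libraries. Its log2 fold change in light in Δrgs4 was -4.87 with this library and -6.35 without it, and that of TrE0005W was -5.93 with it and -7.31 without it.

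The next gene did not share this: TrE0006W had 341, 322 and 361 normalized counts in Δrgs4 DD. It was 319, 370.3 and 279.7 in wild-type DD and 174, 186 and 199 in wild-type LL, where it fell by 0.78 on the log2 scale (limma, adjusted p = 0.0001). TrE0009C had 285 to 462 normalized counts in the DD libraries of the wild-type and 4.89 to 6.77 in LL, and its level in Δrgs4 DD replicate 3 was 422. In Δrgs4 the run of lower genes extended to TrE0010C and had 10 members. At another end TrG0005W was 46.2-fold lower in Δrgs4 DD replicate 3 than in replicates 1 and 2, with 56.7, 114 and 1.84 normalized counts.

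Of the siderophore cluster, SID4 (TrE0011C), the nonribosomal peptide synthetase that joins the building blocks, had 29.3, 30 and 36.2 normalized counts in wild-type DD and 807, 344 and 201 in wild-type LL. In Δrgs4 it had 25.9, 34.0 and 15.6 in DD and 47.0, 86.6 and 172 in LL. LL libraries were above DD libraries in both strains, and all Δrgs4 LL libraries were below all wild-type LL libraries. The transacylase SID6 (TrE0014C) had no read in wild-type DD and 732, 357 and 243 normalized counts in wild-type LL, at least 147-fold higher against 3 reads in each DD library. It had 0.92 to 2.34 in Δrgs4 DD and 69.6, 66.1 and 159 in Δrgs4 LL. The enoyl-CoA hydratase SID8 (TrE0015W) had no read in any DD library, 166, 82.1 and 41.7 in wild-type LL and 9.04, 10.3 and 17.4 in Δrgs4 LL. Neither gene had overlapping LL libraries between the strains.

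The siderophore esterase (TrE0012W), which releases iron from siderophores, the MDR-type ABC transporter (TrE0013C) and the siderophore transporter (TrE0016W) showed the same order. In wild-type LL they had 128 to 463, 167 to 711 and 68.3 to 314 normalized counts. In Δrgs4 LL they had 25.1 to 55.9, 22.6 to 87.1 and 5.43 to 46.8, below all wild-type LL libraries. The wild-type fold changes in light ranged from 3.51 (SID4) to 7.65 (SID6) on the log2 scale. In Δrgs4 5 of the 6 genes were called higher in light, from 1.81 (SID4) to 4.65 (SID6), and the siderophore transporter was not called (1.37, adjusted p = 0.10, limma). In wild-type LL replicate 1 was the highest and replicate 3 the lowest library for all 6 genes.

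Between the strains in light, this cluster made up 6 of the 14 end genes that were called. The test called 12 of the 174 end genes lower and 2 higher in Δrgs4 LL than in wild-type LL, against 1.69% and 0.427% of all genes tested (limma, Benjamini-Hochberg adjustment). An unadjusted p below 0.05 was found for 30 end genes, against 26.4% of all genes, and libraries of the strains did not overlap for 30, against 34.0%. The median log2 fold change of the end genes was 0.00, and that of all genes 0.02. All 6 siderophore genes were lower, with log2 fold changes from -2.08 (SID4, adjusted p = 0.034) to -2.93 (ABC transporter, adjusted p = 0.017).

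Within the cluster the lowest adjusted p, 0.0079 by limma, belonged to SID8 (TrE0015W), and its call was kept with any 1 library left out. Without wild-type LL replicate 2 only SID8 and TrG0013W remained of the 12 lower genes, and 0.485% of all genes tested were then called lower. Without Δrgs4 DD replicate 3 17 of 171 end genes were called lower, with 2.13% of all genes tested. SID4 lost its call without 5 of the 12 libraries (wild-type LL replicates 1 and 2, Δrgs4 LL replicates 1 and 2 and wild-type DD replicate 2), with an adjusted p of up to 0.101.

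Outside the cluster TrG0013W, annotated as a mannitol-1-phosphate dehydrogenase, an enzyme of mannitol metabolism, had 361, 355 and 299.6 normalized counts in wild-type LL and 196, 204 and 219 in Δrgs4 LL. The libraries did not overlap, and the log2 fold change was -0.70 ± 0.09 (SE, adjusted p = 0.0037, limma). In darkness it had 624 to 649 in the wild-type and 652 to 735 in Δrgs4. Its neighbour TrG0012W was also lower in Δrgs4 LL, with 648 to 868 normalized counts against 1047 to 1324 in the wild-type.

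At the low-numbered end of chromosome A TrA0016C, an unknown protein, had 268, 307 and 268 normalized counts in wild-type LL and 206, 165 and 163 in Δrgs4 LL (log2 fold change -0.66, adjusted p = 0.012, limma). TrA0018C, an unknown protein with a DUF227 domain, had 73.3, 114 and 89.1 in wild-type LL and 46.1, 46.7 and 64.2 in Δrgs4 LL (log2 fold change -0.79, adjusted p = 0.029). Its call was lost without wild-type LL replicate 2 or 3 or Δrgs4 LL replicate 1 or 2, with an adjusted p of up to 0.117. TrF0013C had 930.1, 1574 and 1207 in wild-type LL and 439.5, 869 and 639 in Δrgs4 LL, and was not called (log2 fold change -0.95, adjusted p = 0.059). It was called without any 1 of 3 libraries (wild-type DD replicate 3, Δrgs4 DD replicate 3 and Δrgs4 LL replicate 2), with adjusted p = 0.047 without Δrgs4 DD replicate 3 by limma. TrE0008W and TrE0020C completed the lower genes, with TrE0008W at 1 to 7 reads in wild-type LL and 0 in Δrgs4 LL.

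The 2 genes that were higher in Δrgs4 LL had few reads. TrB1960C had 0, 0 and 0.948 normalized counts in wild-type LL and 1.81, 4.56 and 9.17 in Δrgs4 LL, and TrD0019W had 3.39 to 7.59 and 12.5 to 14.7. Their adjusted p were 0.034 and 0.042 (limma), and they lost the call without 6 and without 9 of the 12 libraries, with values of up to 0.117 and 0.153.

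**Figure D5:**
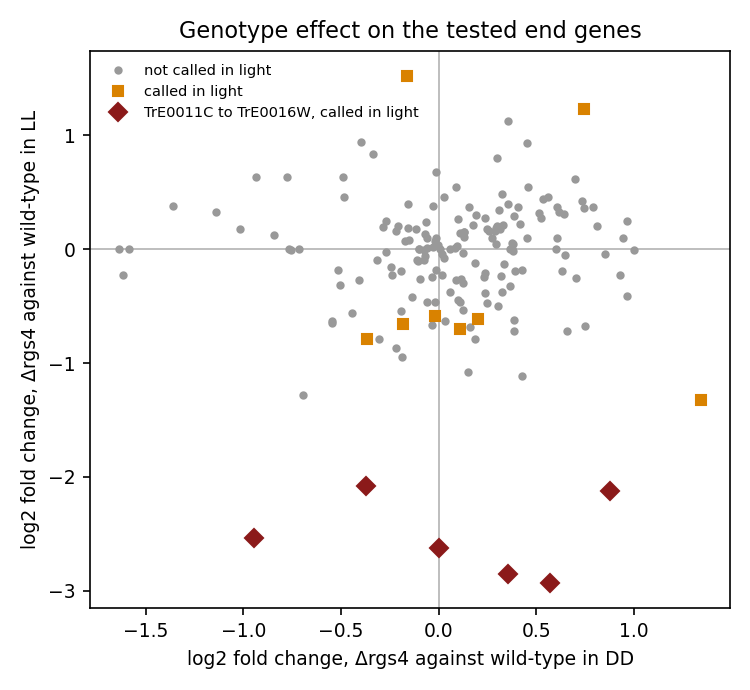
Log2 fold changes of Δrgs4 against the wild-type in darkness (horizontal) and in light (vertical) for the 174 tested end genes. The 6 siderophore genes (dark red diamonds) lie between -2.08 and -2.93 in light, the other 8 called genes are orange squares, and no end gene was called in darkness.

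In darkness 0 end genes were called in either direction between the strains, against 0.0899% of all genes lower and 0.0% higher by limma with Benjamini-Hochberg adjustment. At an unadjusted p below 0.05 there were 7 lower and 11 higher end genes, against 12.4% of all genes in either direction. The alternative limma-voom called 1 lower and 0 higher, against 0.337% and 0.101% of all genes. Libraries of the strains did not overlap for 31 of the 174 end genes, against 16.5% of all genes. The median log2 fold change of the end genes was 0.11, and that of all genes 0.01.

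Without Δrgs4 DD replicate 3 the fit called 2 of 171 end genes lower and 5 higher in darkness, against 1.45% and 1.74% of all genes tested. The lower genes were TrB1962C and TrC0019C, and the higher ones were TrA2144C, TrC0018C, TrF1200C, TrF1209W and TrG0005W. Of 171 end genes 119 (69.6%) then had a log2 fold change above 0, with a median of 0.32, and 53.7% of all genes, with a median of 0.02. All of these 5 higher genes were lowest among the Δrgs4 DD libraries in replicate 3, and TrG0005W was below all wild-type libraries there.

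TrB1962C, an unknown protein with a homologue only in *Gibberella*, had 426, 331 and 360.2 normalized counts in wild-type DD and 141, 176 and 188 in Δrgs4 DD. The strains did not overlap, and the log2 fold change was -1.14 ± 0.21 (SE, adjusted p = 0.083, limma). TrC0019C had 80.4, 81.3 and 175 in wild-type DD and 25.0, 42.2 and 35.9 in Δrgs4 DD (log2 fold change -1.58, adjusted p = 0.084). TrF1200C, a glutathione S-transferase, an enzyme of detoxification, had 89.9, 122 and 95.6 in wild-type DD and 233, 200.2 and 135 in Δrgs4 DD (log2 fold change 0.85, adjusted p = 0.16). In none of these 3 genes did the strains overlap in darkness, but none passed the threshold with all 12 libraries.

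The test of whether the effect of rgs4 differed between light and darkness called 3 end genes whose difference was below 0 and 1 whose difference was above 0, against 0.506% and 0.202% of all genes (limma, Benjamini-Hochberg adjustment). SID6 (TrE0014C), TrG0013W and TrE0008W had log2 differences of -3.00, -0.82 and -2.67, and TrB1962C had 1.47. The adjusted p were 0.025 for TrG0013W and 0.044 for the other 3 genes. For the other 5 siderophore genes the difference was -1.59 to -3.50 with adjusted p from 0.077 to 0.26. With single libraries left out, between 0 and 5 end genes were called lower and 0 or 1 higher, with 5 and 1 without Δrgs4 DD replicate 3, where 103 of all 8869 genes (1.16%) were called lower and 89 higher. The ABC transporter (TrE0013C) was among those 5, with -3.90 and an adjusted p of 0.037 by limma. With 1 library left out, TrB1962C and SID6 stayed called in 2 of 12 fits each and TrG0013W in 3, with adjusted p of up to 0.130, 0.123 and 0.0753. TrE0008W had at most 19 reads in any library, and its call was lost in each of the 9 fits without 1 library in which it could be tested.

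Variation between replicates was larger at the ends than elsewhere. The median SD of log2(normalized counts + 2) over the tested end genes was 0.28 in wild-type DD, 0.37 in Δrgs4 DD, 0.30 in wild-type LL and 0.35 in Δrgs4 LL. For the remaining genes it was 0.13, 0.15, 0.11 and 0.13. The lower levels of the end genes go along with this, and their part in it was not tested. The strand letter in the identifier made little difference to the counts, with 54 lower and 16 higher of the 96 tested genes with C and 43 lower and 9 higher of the 78 with W in wild-type LL.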

How the data were processed

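The authors aligned reads with HISAT2 (version 2.2.1 per the labels), counted them per gene with featureCounts and tested with DESeq2. Libraries were made with a stranded kit. The values used here were deposited by the authors on a log2-like scale, after DESeq2's variance stabilizing transformation, in columns whose names match the samples. Another deposited table, of raw counts, has 12 per-sample columns that could not be paired with samples, and it was left out.

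A gene without reads has the lowest value in the table (6.74). From this the transformation was undone, and the smallest step of each library then gave whole reads, with 100% of the values whole within 0.01. Genes were tested where 3 or more libraries had 10 or more reads, which left 8895. The test was limma 3.58.1 (R 4.3.3), with a trend of variance on level, on log2 of the normalized counts + 2, over 12 libraries in 4 groups. Fold changes are on this scale, which understates those of genes with few reads. Thresholds were 0.58 for the log2 fold change and 0.05 for the Benjamini-Hochberg adjusted p over all tested genes. The study's methods describe the 3 samples of a group as biological triplicates. A limit against a group without reads assumes 3 reads in each library and covers counting error only. The steps were tested on simulated data.

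Values were read with Python 3.11.15 and pandas 2.3.3 and plotted with matplotlib 3.10.9. The members and lists were chosen with earlier results of these data known. Genes named in the text are those the paper names, for each contrast and direction up to 6 called genes without overlap between the groups (for the interaction also with overlap), the 6 most abundant end genes, the 14 outermost genes, runs of 3 or more neighbours called alike, and rgs4. TrE0005W, TrE0006W, TrE0009C, TrG0005W, TrC0020W, TrG0012W and the genes called without Δrgs4 DD replicate 3 were added after their values were seen, as were genes named only to complete a count. Alternatives were other scaling (TMM, upper quartile), only the 6 libraries of a comparison, a replicate block, other filters, pseudocounts of 0.5 and 5, the values as deposited, limma-voom, no trend, adjusted p alone, treat against 1.5-fold, 10 or 40 genes an end, and leaving out each library or chromosome. Replicate numbers were not taken as pairs. The annotation at hand is of another build and shares no identifiers with the files, so that no coordinates or sequences are given.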

Additional observations from a re-analysis of the deposited data

Results flagged for a closer look

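The effect of rgs4 differed between light and darkness by the test of the interaction for 4 end genes. The genotype effect in LL minus that in DD was 1.47 on the log2 scale for TrB1962C, -2.67 for TrE0008W, -3.00 for TrE0014C (SID6) and -0.82 for TrG0013W. With 1 library left out, the call was kept in 2 of 12 fits for TrB1962C, in 2 of 12 for TrE0014C, in 3 of 12 for TrG0013W and in 0 of 9 for TrE0008W.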

How the results depend on the processing

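Of the results given here, the light responses kept their direction and stayed within 1.5 times the reported counts under both other scalings (TMM and upper quartile), with only the 6 libraries compared and under no filter beyond 1 read, both pseudocounts, limma-voom, no trend, adjusted p alone and treat. With at least 10 reads in every library, where fewer genes were tested, 36 lower and 13 higher of 80 end genes were called in the wild-type. Over all genes tested this was 17.3% and 15.3%. In Δrgs4 it was 42 and 12 end genes, against 17.7% and 14.3% of all genes. With the values as deposited, which are compressed at low levels, 62 end genes were lower in the wild-type, against 14.5% of all genes. In Δrgs4 70 were lower and 14 higher, against 14.2% and 8.11%. For rgs4 in light, higher genes numbered 1 under upper-quartile factors, a pseudocount of 5 and limma-voom, against 0.236%, 0.393% and 0.326% of all genes. They numbered 0 with the 6 libraries alone, with 10 reads in every library, with the values as deposited and under treat. Over all genes these settings gave 0.430%, 0.475%, 0.0562% and 0%. Lower genes numbered 7 with 10 reads in every library, 6 with the values as deposited and 0 under treat, against 1.96%, 0.337% and 0.0225% of all genes. For darkness 2 lower genes were called with the values as deposited and 1 with limma-voom, against 0.304% and 0.337% of all genes. For the interaction 0 higher genes were called under upper-quartile factors, without the filter, without the trend and under treat, against 0.0337%, 0.0860%, 0.0787% and 0% of all genes. Lower genes numbered 1 under upper-quartile factors and with 10 reads in every library, against 0.259% and 0.655%. They numbered 0 with the values as deposited and under treat, against 0.247% and 0%. Other causes were not tested.

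Same-numbered replicates did not deviate together (correlations from -0.41 to 0.35, with every pair above 0.1 in 0 of the group pairs). With the replicate number as a block, 96 end genes were lower and 26 higher in light in the wild-type, 107 and 24 in Δrgs4, 8 and 1 for rgs4 in light, 0 and 0 in darkness, and 0 and 0 for the interaction. Over all genes it was, in the same order, 21.5% and 15.2%, 21.9% and 14.1%, 1.28% and 0.304%, 0.0337% and 0%, and 0.0450% and 0%. The highest number of replicates that correlated best with their own number was 2 of 3 in any group pair.

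Leaving out 1 library at a time gave 90 to 99 lower and 24 to 27 higher genes in light in the wild-type and 95 to 108 and 22 to 25 in Δrgs4. Over all genes these fits called 20.4 to 22.0% lower and 14.4 to 15.8% higher in the wild-type. In Δrgs4 it was 20.4 to 22.5% and 13.5 to 14.6%. For rgs4 in light they gave 2 (without wild-type LL replicate 2) to 17 (without Δrgs4 DD replicate 3) lower end genes. There 0.485% and 2.13% of all genes were lower. Higher end genes numbered 0 to 2, against 0.079 to 0.631% of all genes. In darkness 0 to 2 end genes were lower and 0 to 5 higher, against 0.0113 to 1.45% and 0 to 1.74% of all genes. For the interaction 0 to 5 were lower, against 0.0789 to 1.16% of all genes, and 0 to 1 higher, against 0 to 89 genes in all. The median level was 12.7 to 14.5 normalized counts in wild-type DD and 3.13 to 4.54 in wild-type LL.

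The share of end genes with enough reads was 55.7% with 10 and 68.6% with 40 genes an end, 87.9% with 1 read as the limit, 28.6% with 10 reads in every library, and 59.6 to 64.6% with 1 chromosome left out. The median level with 10 and 40 genes an end was 11.6 and 29.7 normalized counts in wild-type DD and 1.10 and 11.1 in wild-type LL, and 77.4 and 24.6 over the genes with enough reads. Of 2199 values of single named genes under the alternatives, 2009 kept their direction and their side of the threshold, 178 lost the call, 12 gained it and 0 changed sign. Depth limits what can be said of the 106 end genes under the filter.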
